A study of Mus musculus with 4 samples.

Results

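The genes described here encode the chaperones of the cytosol and of the mitochondrial matrix, and they were followed in the small intestine of wild-type mice and of mice with a CFLARs transgene (CFLARs Tg). The list held 37 genes in 7 groups: the chaperonin TRiC, the HSP70 and HSP110 proteins, HSP90 with its co-chaperones, J-domain proteins, the small heat shock protein Hspb1 with Bag3 and Hsf1, the mitochondrial chaperones and prefoldin. A gene was followed where a probe set carried its symbol alone, and among several such probe sets the one used was chosen by its mean over the 4 arrays, the highest being kept. That mean is the measured value in the rule, and the genes themselves were listed with earlier results of these data known, so the counts below describe the list and support nothing by themselves. Of the 37 genes, 34 had such a probe set, among 19938 genes on the array, and all 34 passed the filter on low values. Hspa1b, Hsp90ab1 and Hsf1 had none and were not analysed here.

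The array data came from total RNA of the small intestine of C57BL/6 mice. Wild-type mice gave 2 arrays, titled XX and XY, and CFLARs Tg mice gave 2, titled XCFX and XCFY. The transgene carries the short form of Cflar, which regulates caspase-8, and no other allele, agent or treatment is named for either genotype. Not given in the sources used here are the stretch of intestine, the age of the animals, the promoter that drives the transgene, its copy number and how many animals were behind each array. The series title places the work in necroptosis and ileitis of preterm mice. By these titles, XCFX is compared with XX as the XX-type pair, and XCFY with XY as the XY-type pair. The p-values rest on the spread between the 2 arrays of a genotype, pooled over both genotypes and moderated over all genes. These 2 arrays differ in title type. Unless the title type is a block, the spread therefore holds any difference between the title types, and it may be technical in part.

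The 4 arrays had medians between 8.31 and 8.33 on the log2 scale. The spread between the wild-type arrays was smaller than that between the CFLARs Tg arrays, with an SD of the log2 differences over all genes fitted of 0.150 against 0.246. The epithelial marker Epcam read 12.41 and 12.46 in wild-type and 12.44 and 12.28 in CFLARs Tg, so the labelled tissue carried its epithelium in all 4 arrays. Cflar read 9.34 and 9.28 in wild-type and 9.49 and 9.30 in CFLARs Tg (adjusted p = 0.498). The part of the transgene that its probe sets match is unknown here, so Cflar gave no check of the genotype labels. The lowest reading of any chaperone gene was 7.58, above the readings of 5.13 to 6.78 that Y-linked genes gave on the XX-type arrays and Xist gave on the XY-type arrays.

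Chaperones bind proteins that are not yet folded and keep them from clumping. In the cytosol a new chain meets HSP70, whose cycle is started by J-domain proteins and reset by exchange factors such as the HSP110 proteins, and it may pass on to HSP90 or to TRiC. TRiC is a barrel-shaped machine built from related Cct subunits that folds actin and tubulin, which prefoldin can deliver to it. In mitochondria, Hspa9 draws proteins in and the chamber of Hspd1 with its lid Hspe1 folds them. The factor Hsf1 drives many of these genes when proteins misfold, by binding heat shock elements, which are inverted repeats of the bases GAA. In the intestine, as elsewhere, these proteins are abundant in dividing cells and in cells under stress.

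In CFLARs Tg intestine, 15 of the 34 chaperone genes rose above wild-type, and 0 fell below it (limma, adjusted p under 0.05). Over all 13956 genes fitted, 8.44% rose and 10.9% fell. At an unadjusted p under 0.05 (limma), 22 chaperone genes passed, of which 1 was lower. At that threshold 17.2% of all genes were higher and 21.9% lower. The median difference over the 34 genes was 0.35 on the log2 scale (1.28-fold), against -0.01 over all genes fitted. The differences ran from -0.23 for Pfdn5 to 0.82 for Hspb1. Both CFLARs Tg arrays lay above both wild-type arrays for 28 of the 34 genes, and for 32.0% of all genes. In whole tissue, more RNA per cell and more cells of a type that carries the RNA cannot be told apart.

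The genes that rose were Cct3, Cct5, Cct6a, Cct7 and Cct8 of TRiC, Hspa1a, Hspa4 and Hsph1 of the HSP70 and HSP110 group, Hsp90aa1, Stip1 and Ahsa1 of the HSP90 group, Hspd1, Hspe1 and Hspa9 of mitochondria, and Pfdn4 of prefoldin. The call nearest to the threshold was that of Cct6a (limma adjusted p = 0.0493), and the nearest genes outside it were Cdc37 (0.0508) and Dnaja2 (0.0529). All 15 calls rested on having both wild-type arrays. Without wild-type replicate 1 (the XX array) or without wild-type replicate 2 (the XY array), 0 of the 34 genes passed (limma; 16 and 15 genes at an unadjusted p under 0.05), and 0.301% and 0.287% of all genes did.

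**Figure D1:**
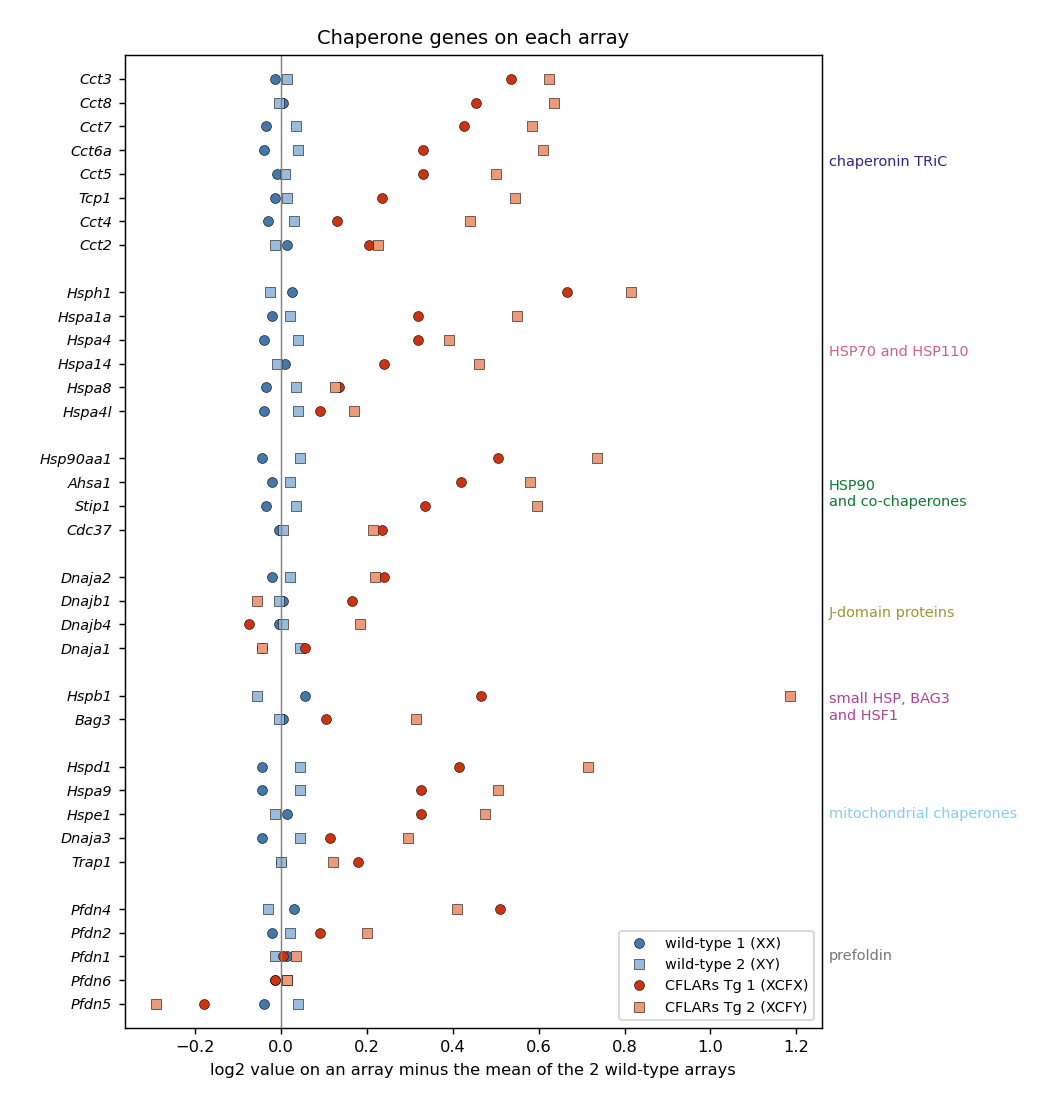
Each point is 1 array: its log2 value for a gene minus the mean of the 2 wild-type arrays, with genes grouped by family and wild-type in blue, CFLARs Tg in red. The CFLARs Tg points lie to the right of both wild-type points for all 8 TRiC subunits, while Pfdn5 is the gene with both CFLARs Tg points to the left.

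The upstream sequences of 4 genes that rose are shown because they hold motifs of the kinds counted below. They come from RefSeq, mouse build GRCm38.p6, and run 5′ to 3′ on the gene's strand up to the base before the transcript start. Capitals mark heat shock elements (GAANNTTC or TTCNNGAA, N being any base) and the NF-Y-type box CCAAT on either strand. The Cct3 stretch holds CCAAT boxes and no heat shock element. A longer heat shock element of Hsph1, described below, lies after its start and so outside its stretch. The Hspe1 stretch is chr1:55087933-55088147, plus strand, and lies between that start and a start of Hspd1, which is read the other way. The Hsph1 stretch is chr5:149636337-149636586, minus strand, that of Hspa1a chr17:34972157-34972406, minus strand, and that of Cct3 chr3:88296885-88297134, plus strand.
Hspe1: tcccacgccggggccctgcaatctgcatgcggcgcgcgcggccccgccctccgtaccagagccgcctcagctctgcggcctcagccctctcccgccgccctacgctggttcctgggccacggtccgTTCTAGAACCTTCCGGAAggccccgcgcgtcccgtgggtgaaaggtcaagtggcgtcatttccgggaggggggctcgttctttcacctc
Hsph1: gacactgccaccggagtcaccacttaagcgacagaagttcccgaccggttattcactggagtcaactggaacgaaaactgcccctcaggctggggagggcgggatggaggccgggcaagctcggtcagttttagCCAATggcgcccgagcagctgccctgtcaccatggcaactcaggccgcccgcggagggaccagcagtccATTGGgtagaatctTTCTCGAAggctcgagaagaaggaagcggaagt
Hspa1a: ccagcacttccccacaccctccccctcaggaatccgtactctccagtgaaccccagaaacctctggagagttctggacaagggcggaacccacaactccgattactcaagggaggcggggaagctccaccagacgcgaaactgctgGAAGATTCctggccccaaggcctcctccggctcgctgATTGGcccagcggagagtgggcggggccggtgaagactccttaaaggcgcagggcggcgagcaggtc
Cct3: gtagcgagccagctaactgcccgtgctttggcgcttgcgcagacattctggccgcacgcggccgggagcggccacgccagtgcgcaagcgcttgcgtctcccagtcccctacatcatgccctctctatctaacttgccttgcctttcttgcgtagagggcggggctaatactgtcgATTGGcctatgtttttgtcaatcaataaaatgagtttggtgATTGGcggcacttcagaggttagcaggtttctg

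The 8 subunits of TRiC all read higher on both CFLARs Tg arrays than on both wild-type arrays (32.0% of all genes). Of these subunits 5 rose (8.44% of all genes). The median difference of the 8 subunits was 0.44 on the log2 scale, and the differences ran from 0.22 to 0.58 (1.16-fold to 1.49-fold). Cct3 read 11.04 and 11.07 in wild-type (XX, XY) and 11.59 and 11.68 in CFLARs Tg (XCFX, XCFY). It had the largest difference of the subunits, 0.58 (SE 0.06, limma adjusted p = 0.0174). Cct8 read 10.39 and 10.38 in wild-type and 10.84 and 11.02 in CFLARs Tg, a rise of 0.54 (SE 0.08, adjusted p = 0.0235). In both genes the gap between genotypes was wider than the gap between the arrays of either genotype.

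Cct7 read 10.78 and 10.85 in wild-type and 11.24 and 11.40 in CFLARs Tg (difference 0.50, SE 0.08, adjusted p = 0.0254). Cct5 read 10.56 and 10.58 against 10.90 and 11.07 (difference 0.41, SE 0.08, adjusted p = 0.0329). Cct6a read 11.42 and 11.50 against 11.79 and 12.07 (difference 0.47, SE 0.11, adjusted p = 0.0493). In each of these subunits the XCFY array was the highest of the 4. Cct6a was no longer called without a filter or after quantile normalization.

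The other 3 subunits did not pass, and the spread between the CFLARs Tg arrays was wide for a pair of them. Tcp1, the subunit after which the complex was named, read 10.95 and 10.98 in wild-type and 11.20 and 11.51 in CFLARs Tg (adjusted p = 0.0775, and 0.0429 with the title type as a block). Cct4 read 10.90 and 10.96 against 11.06 and 11.37 (adjusted p = 0.144). Cct2 had the smallest difference of the subunits, 0.22 (SE 0.06, adjusted p = 0.0574), with 12.03 and 12.00 against 12.22 and 12.24. Its arrays agreed closely within each genotype.

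Among the HSP70 and HSP110 genes, 3 of 6 measured members rose (8.44% of all genes). All 6 read higher on both CFLARs Tg arrays (32.0% of all genes). Hsph1, an HSP110 protein that resets HSP70, had the largest rise of any chaperone gene called. It read 9.10 and 9.05 in wild-type and 9.74 and 9.89 in CFLARs Tg, a difference of 0.74 (1.67-fold, SE 0.08, limma adjusted p = 0.0168). Hspa4, another HSP110 protein, read 11.40 and 11.48 against 11.76 and 11.83 (difference 0.35, SE 0.07, adjusted p = 0.0320). Its rise was nearly equal in the XX-type and the XY-type pair, at 0.36 and 0.35.

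Hspa1a, the stress-inducible HSP70, read 9.13 and 9.17 in wild-type and 9.47 and 9.70 in CFLARs Tg (difference 0.44, SE 0.09, adjusted p = 0.0420). The upstream windows of Hspa1a and Hspa1b share 296 of 300 bases. RNA of Hspa1b may also reach the Hspa1a probe set, so the rise is uncertain as to which copy gave it. Hspa8, the constitutive HSP70, read 13.42 and 13.49 against 13.59 and 13.58 (difference 0.13, SE 0.06, adjusted p = 0.184). Hspa4l, a close relative of Hspa4, differed by the same 0.13 (SE 0.07, adjusted p = 0.211), with 8.94 and 9.02 against 9.07 and 9.15. Hspa14, which works at the ribosome with the J-domain protein Dnajc2, read 9.33 and 9.31 against 9.56 and 9.78 (adjusted p = 0.0600, and 0.0491 with the title type as a block).

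In the HSP90 group 3 of 4 measured genes rose (8.44% of all genes). Hsp90aa1, the inducible form of HSP90, read 11.62 and 11.71 in wild-type and 12.17 and 12.40 in CFLARs Tg (difference 0.62, 1.54-fold, SE 0.10, limma adjusted p = 0.0254). Between genotypes, the 3 Hsp90aa1 probe sets gave differences of 0.59, 0.60 and 0.62. Ahsa1, which stimulates the HSP90 ATPase, read 10.43 and 10.47 against 10.87 and 11.03 (difference 0.50, SE 0.08, adjusted p = 0.0241). Stip1, the adaptor that joins HSP70 to HSP90, read 10.84 and 10.91 against 11.21 and 11.47 (difference 0.46, SE 0.10, adjusted p = 0.0439), and its call was lost without a filter. Cdc37, which brings kinases to HSP90, read 10.05 and 10.06 against 10.29 and 10.27 and lay just outside the threshold (difference 0.23, SE 0.05, adjusted p = 0.0508).

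**Figure D2:**
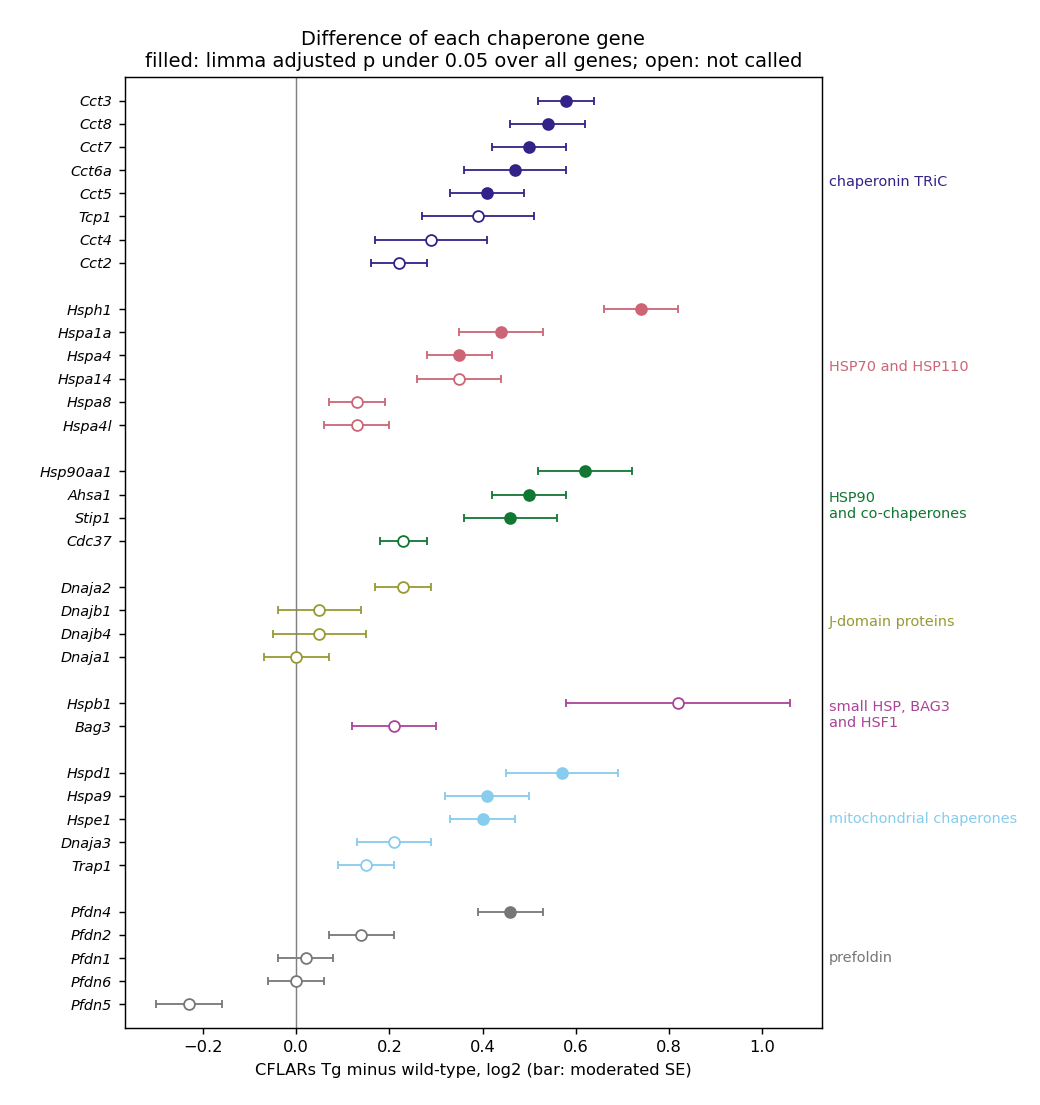
Each point is the log2 difference of a gene (CFLARs Tg minus wild-type), with its moderated SE as the bar; filled points passed the test over all genes and open points did not. Hsph1 is the filled point farthest to the right at 0.74, and Hspb1, at 0.82, is open and has the longest bar.

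Of the J-domain proteins, which start the HSP70 cycle, 0 of 4 passed (limma; 1 at an unadjusted p under 0.05, Dnaja2), with a median of 0.05. Of all genes fitted, 8.44% rose and 10.9% fell, and 17.2% were higher and 21.9% lower at that unadjusted threshold (limma). Dnajb1, a classical heat shock gene, read 9.38 and 9.37 in wild-type and 9.54 and 9.32 in CFLARs Tg, so its CFLARs Tg arrays lay on either side of wild-type (difference 0.05, SE 0.09, adjusted p = 0.708). Dnajb4 read 10.09 and 10.10 against 10.02 and 10.28 (difference 0.05, SE 0.10, adjusted p = 0.729). Dnaja1 read 11.21 and 11.30 against 11.31 and 11.21 (adjusted p = 0.978). A second, dimmer probe set of Dnaja1 read 9.31 and 9.33 in wild-type, 9.69 on XCFX and 9.24 on XCFY (difference 0.15). Dnaja2 read 10.90 and 10.94 against 11.16 and 11.14 (difference 0.23, SE 0.06, adjusted p = 0.0529), and was the J-domain gene whose genotypes did not overlap.

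Hspb1, the small heat shock protein HSP27, had the largest difference of the list and did not pass on all 4 arrays without a block for the title type. It read 10.68 and 10.57 in wild-type, 11.09 on XCFX and 11.81 on XCFY (difference 0.82, SE 0.24, limma adjusted p = 0.0779). A second probe set of Hspb1 read 10.56 and 10.45 in wild-type and 10.94 and 11.66 in CFLARs Tg, the same order of the 4 arrays. With the title type as a block Hspb1 passed (limma adjusted p = 0.0409). Its difference was 1.18 without CFLARs Tg replicate 1 and 0.47 without CFLARs Tg replicate 2. In those fits the gene's own spread comes from the wild-type arrays alone, which leaves out the gap between the CFLARs Tg arrays. Bag3, an Hsf1 target that links HSP70 to small heat shock proteins, read 9.28 and 9.27 against 9.38 and 9.59 (difference 0.21, SE 0.09, adjusted p = 0.148).

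In mitochondria 3 of 5 chaperone genes rose (8.44% of all genes): both parts of the chaperonin, and Hspa9. Hspd1, the chamber protein HSP60, read 11.54 and 11.63 in wild-type and 12.00 and 12.30 in CFLARs Tg (difference 0.57, 1.48-fold, SE 0.12, limma adjusted p = 0.0389). Hspe1, its lid, read 11.32 and 11.29 against 11.63 and 11.78 (difference 0.40, SE 0.07, adjusted p = 0.0320). The second probe set of each gene differed by 0.67 and 0.43. Hspa9 read 11.50 and 11.59 against 11.87 and 12.05 (difference 0.41, SE 0.09, adjusted p = 0.0400).

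Trap1, the mitochondrial HSP90, had the smallest difference of this group: it read 10.74 and 10.74 in wild-type and 10.92 and 10.86 in CFLARs Tg (difference 0.15, SE 0.06, limma adjusted p = 0.131). Dnaja3, the J-domain partner of Hspa9, read 9.59 and 9.68 against 9.75 and 9.93 (adjusted p = 0.145). All 5 genes of the group read higher on both CFLARs Tg arrays (32.0% of all genes), with a median of 0.40.

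Prefoldin showed no common shift: 1 of 5 measured subunits rose (8.44% of all genes). The median was 0.02 and the differences ran from -0.23 to 0.46. Pfdn4 read 7.64 and 7.58 in wild-type and 8.12 and 8.02 in CFLARs Tg (difference 0.46, SE 0.07, limma adjusted p = 0.0231). Its mean lay close to the filter value of 7.48, and it was left out when the lowest 50% of genes were dropped. Pfdn5 read 10.11 and 10.19 against 9.97 and 9.86 (difference -0.23, SE 0.07, adjusted p = 0.0781). It was the member of the whole list with both CFLARs Tg arrays below both wild-type arrays. This was so for 5249 of all 13956 genes fitted.

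The remaining prefoldin subunits lay close to wild-type. Pfdn6 read 9.22 and 9.25 in both genotypes (difference 0.00, SE 0.06), Pfdn1 read 9.49 and 9.46 against 9.48 and 9.51 (difference 0.02, SE 0.06), and Pfdn2 read 10.63 and 10.67 against 10.74 and 10.85 (difference 0.14, SE 0.07). Their adjusted p-values were 0.979, 0.822 and 0.182 (limma). Vbp1, the gene of a further subunit outside the list of 37, read 9.26 and 9.17 against 9.27 and 9.45 (difference 0.14, SE 0.09, adjusted p = 0.286).

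The differences were mostly larger in the XY-type pair, in 24 of 34 genes. Over all genes fitted it was so for 53.5%. It held for 8 of 8 TRiC subunits, with a median difference of 0.35 (XX-type) and 0.54 (XY-type). For prefoldin the medians of the pairs were 0.00 and 0.05, and for the mitochondrial group 0.31 and 0.45. Hspb1 stood out with 0.41 and 1.24. With 1 array per genotype in a pair, these values have no test. The medians over all genes fitted were -0.02 and -0.01. The median SD between arrays was 0.0315 in wild-type and 0.113 in CFLARs Tg over the 34 chaperone genes, against 0.0356 and 0.0748 over all genes fitted.

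**Figure D3:**
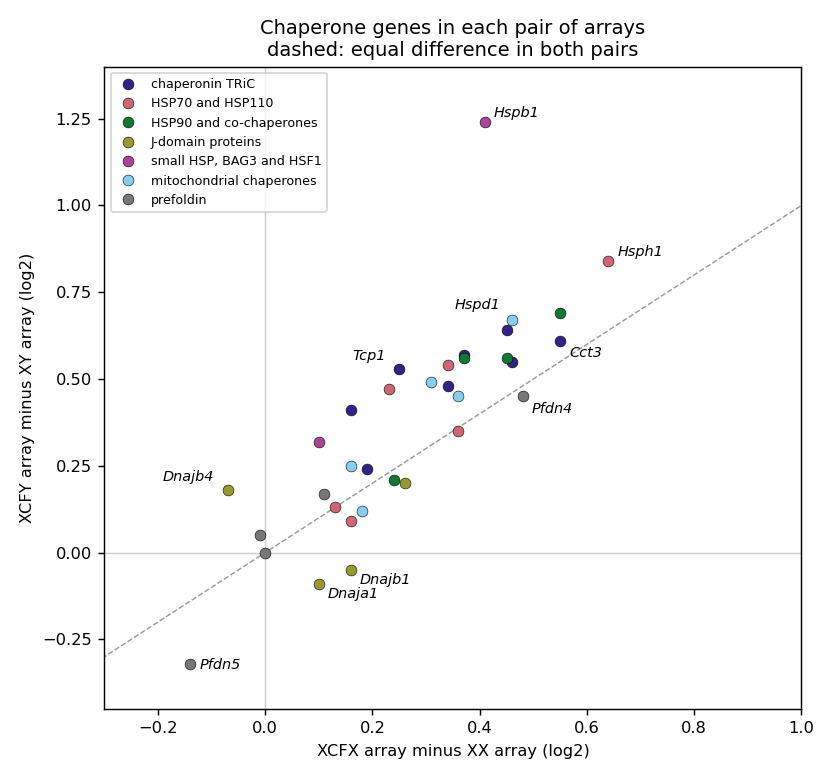
Each point is a chaperone gene, with its log2 difference XCFX minus XX on the horizontal axis and XCFY minus XY on the vertical axis. Of the 34 points, 24 lie above the dashed line of equal difference, with Hspb1 (0.41 and 1.24) farthest from it.

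Motifs in the promoter windows were counted over 300 bases, from 250 before to 50 after each RefSeq start, on both strands. Windows were found for 30 of the 37 genes. A heat shock element of 2 units (GAANNTTC or TTCNNGAA) was present for 13 of 30 genes (43.3%), and for 17.0% of the 27025 genes in the table. One of 3 units (GAANNTTCNNGAA or TTCNNGAANNTTC, which contains the shorter element) was present for 3 of 30 genes and for 0.66% of all genes. CCAAT or its complement was present for 14 of 30 genes (46.7%) and for 41.1% of all genes. Genes with several starts count once if any window matched.

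Hspd1 and Hspe1 lie side by side on chromosome 1 and are read away from each other, with starts 216 bases apart for the Hspd1 window that overlaps that of Hspe1 by 285 bases. Both windows hold the same element, at chr1:55088059-55088076, which reads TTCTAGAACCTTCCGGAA on the strand of Hspe1 and begins at position -89 from its start. The other Hspd1 window, chr1:55088194-55088493, holds no heat shock element. The 3-unit match of Hsph1, TTCTGGAAAGTTC, lies at chr5:149636288-149636300, downstream of both of its listed starts. The 3 genes with a 3-unit match were all among those that rose. The 2-unit element was present for 6 of 13 genes that rose and for 6 of 16 that were not called, among them Hspb1 with 2 matches. CCAAT was present for 7 of 13 and 6 of 16. None of the 4 prefoldin genes with a window held any of the 3 motifs. A match is a run of letters and says nothing about binding.

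**Figure D4:**
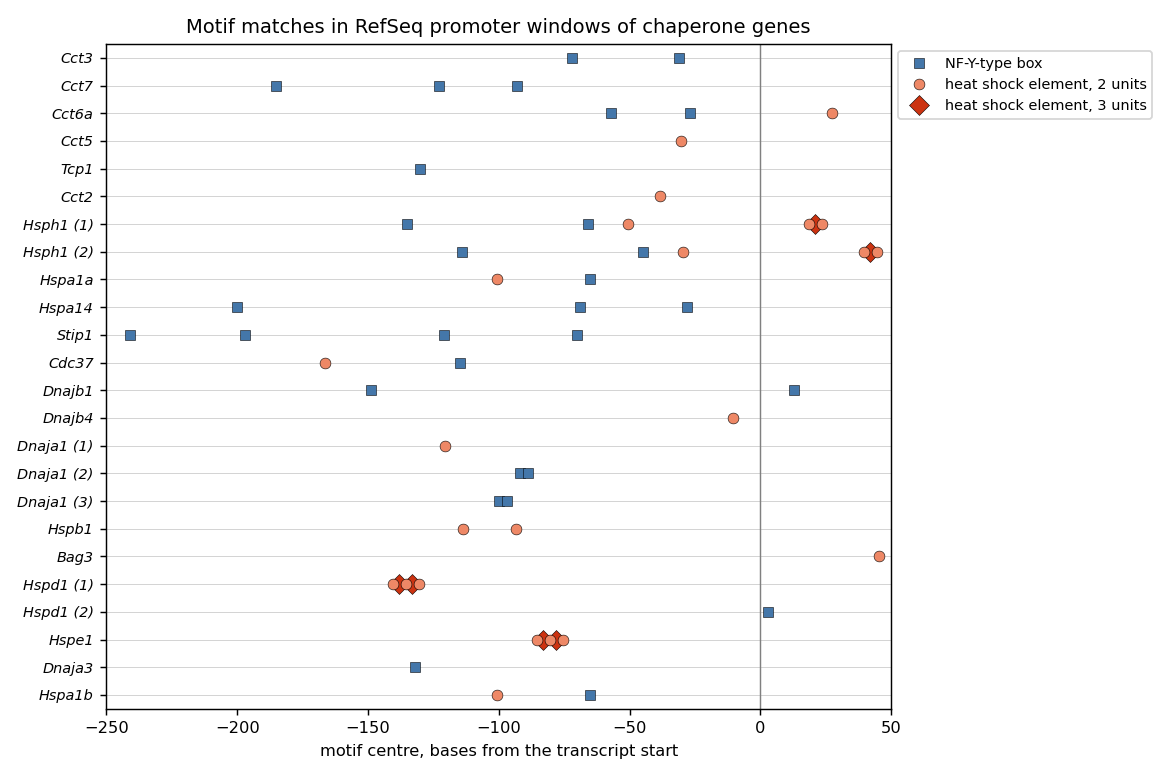
Each row is a RefSeq promoter window of a chaperone gene (several windows of a gene are numbered by position), and each symbol is the centre of a motif match in bases from the transcript start. The 3-unit heat shock elements appear upstream of the start in Hspe1 and in the Hspd1 window that overlaps it by 285 bases. The other Hspd1 window holds none. In both windows of Hsph1 the element lies just after the start.

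Of 42 further cytosolic chaperones and co-chaperones fitted, 5 rose and 0 fell (limma), with a median of 0.14. Over all genes fitted 8.44% rose and 10.9% fell. At an unadjusted p under 0.05 (limma), 19 of the 42 passed, 3 of them lower. At that threshold 17.2% of all genes were higher and 21.9% lower. The HSP90 co-chaperone Ptges3 (p23) read 11.86 and 11.90 in wild-type and 12.34 and 12.66 in CFLARs Tg (difference 0.62, SE 0.12, adjusted p = 0.0341). Dnajc2, the ribosomal partner of Hspa14, rose by 0.53 (SE 0.07), Bag2, a co-chaperone of HSP70, by 0.43 (SE 0.09), and the immunophilin Fkbp4, which binds HSP90, by 0.37 (SE 0.07). Their adjusted p-values were 0.0197, 0.0410 and 0.0303.

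Of the partners and clients of TRiC, 0 of 14 fitted genes passed (limma; 1 at an unadjusted p under 0.05), with a median of 0.08. Actb, a main client, read 14.20 and 14.24 in wild-type and 14.23 and 14.21 in CFLARs Tg. The tubulin Tubb2a, the gene with that p, read 9.91 and 9.95 against 10.53 and 10.24 (difference 0.46, SE 0.11, adjusted p = 0.0510). Tubb5, another tubulin, read 12.79 and 12.81 against 12.92 and 13.12 (difference 0.22, SE 0.08, adjusted p = 0.135). Beside these counts, 8.44% of all genes fitted rose and 10.9% fell (limma). At an unadjusted p under 0.05 (limma), 17.2% of all genes were higher and 21.9% lower.

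Of 19 genes of mitochondrial import and proteolysis, 3 rose and 2 fell (limma), with a median of 0.10. Over all genes fitted 8.44% rose and 10.9% fell. At an unadjusted p under 0.05 (limma), 7 of the 19 passed, 2 of them lower. At that threshold 17.2% of all genes were higher and 21.9% lower. The import channels Tomm40 and Timm23 rose by 0.52 (SE 0.06, limma adjusted p = 0.0189) and 0.45 (SE 0.10, adjusted p = 0.0487). Hscb, a co-chaperone of iron-sulfur cluster assembly, read 8.86 and 8.86 in wild-type and 8.15 and 7.96 in CFLARs Tg, and fell by 0.80 (SE 0.08, adjusted p = 0.0168). Dnajc19, a J-domain protein of the inner membrane, fell by 0.63 (SE 0.11, adjusted p = 0.0298). Grpel1, which resets Hspa9, differed by 0.09 (adjusted p = 0.287).

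Beside the cytosolic and mitochondrial chaperones, 9 of 19 chaperone genes of the endoplasmic reticulum rose and 0 fell (limma; 1 lower at an unadjusted p under 0.05), with a median of 0.20. The largest rises were those of Creld2 (0.67, SE 0.09), Hyou1 (0.62, SE 0.07), Manf (0.60, SE 0.07) and Hspa5 (0.44, SE 0.06), the HSP70 of that compartment. Of 31 proteasome genes 20 rose and 0 fell (limma; 0 lower at an unadjusted p under 0.05), with a median of 0.34. The largest were those of the core subunits Psma5 (0.60, SE 0.06), Psma3 (0.59, SE 0.09) and Psma7 (0.50, SE 0.06) and of the lid subunit Psmd7 (0.58, SE 0.09). Of 19 cytosolic ribosomal protein genes 1, Rpl30, rose (0.35, SE 0.06) and 0 fell (limma; 0 lower at an unadjusted p under 0.05), with a median of 0.06. Beside these counts, 8.44% of all genes fitted rose and 10.9% fell (limma). At an unadjusted p under 0.05 (limma), 17.2% of all genes were higher and 21.9% lower. The lists were not tested against each other, and all share the same 4 arrays.

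**Figure D5:**
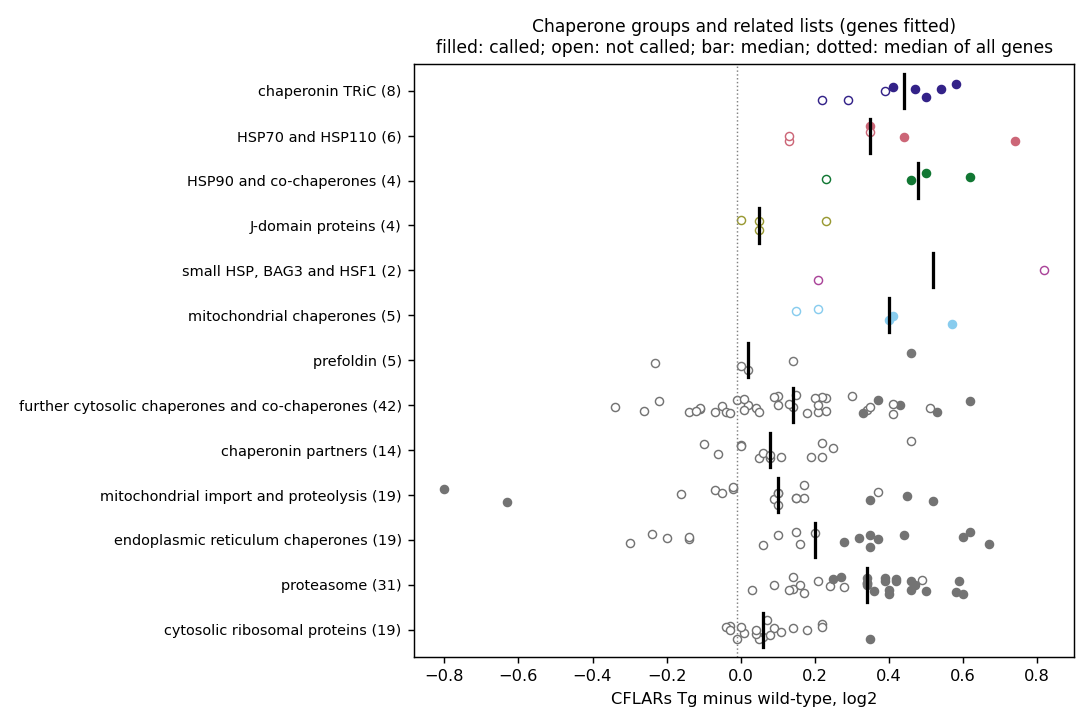
Each point is a gene (filled if called), placed by its log2 difference, CFLARs Tg minus wild-type; black bars are list medians and numbers in brackets are genes fitted. The TRiC, HSP90 and mitochondrial medians are 0.44, 0.48 and 0.40, and those of prefoldin and of the J-domain proteins are 0.02 and 0.05.

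Some markers of other cells and states moved between the same arrays. Of 8 smooth muscle, 7 fibroblast and 3 lymphocyte markers fitted, 0 passed (limma). The medians of these lists were 0.11, -0.02 and 0.12, and 2, 0 and 1 markers had an unadjusted p under 0.05 (limma). The summed level of 10 neutrophil markers (log2 of the summed linear values, fitted or not) was 10.35 to 10.40 in wild-type and 11.61 to 12.74 in CFLARs Tg. Of these, 6 were fitted, and they read below the filter value of 7.48 on both wild-type arrays, so they passed the filter only through their CFLARs Tg values and their calls are not counted here. S100a9, for example, read 7.15 and 7.36 against 9.36 and 10.57. The granule genes Mpo, Elane and Camp read between 6.99 and 7.55 on all 4 arrays, while Retnlg read 6.09 and 6.30 in wild-type and 7.34 and 9.12 in CFLARs Tg. Of 14 proliferation genes 5 rose (summed level 14.55 to 14.57 against 14.77 to 15.04), and of 15 immediate early genes 9 rose (13.42 to 13.43 against 13.87 to 14.01). The medians of these lists were 0.34 and 0.55, and 10 and 14 genes had an unadjusted p under 0.05 (limma), 0 of them lower. Of 11 enterocyte genes fitted 2 fell (16.78 to 16.79 against 16.11 to 16.53), and of 8 general epithelial genes 4 rose (15.11 to 15.17 against 15.49 to 15.54). The medians here were -0.52 and 0.41. At an unadjusted p under 0.05 (limma), 7 enterocyte genes were lower, and 6 epithelial genes passed, 0 of them lower. Of 8 monocyte and macrophage markers fitted 0 passed (limma; 5 at an unadjusted p under 0.05), with a median of 0.64 and a summed level of 12.17 in both wild-type arrays against 12.43 to 12.98. Of 6 endothelial markers 2 fell, Kdr by 0.30 and Tek by 0.29 (13.01 to 13.06 against 12.84 to 12.98). Of all genes fitted, 8.44% rose and 10.9% fell, and 17.2% were higher and 21.9% lower at an unadjusted p under 0.05 (limma). The part of these marker shifts in the chaperone differences was not tested.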

How the data were processed

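Total RNA from small intestine was labelled with biotin by an Affymetrix protocol, per the labels, and read on 4 single-colour arrays. The authors deposited a log2 value for each probe set on each array. How they were summarised, background-corrected and normalized is not given in the sources used here. No further scaling was applied to the deposited log2 values.

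Gene symbols came from the platform annotation: of 28856 probe sets, 21789 had 1 symbol, 1621 several and 5446 none, and only the first were named. The RefSeq gene table (GRCm38.p6) changed 0 symbols. Among several probe sets of a gene, that of highest mean was used. Of the chaperone genes, 6 had more than 1 probe set (14 in all). The files do not say which probe sets also match processed pseudogenes, which several of these genes are known to have.

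The 30% of genes with the lowest mean (under 7.48) were left out. CFLARs Tg was compared with wild-type over 13956 genes with limma 3.58.1 in R 4.3.3 (lmFit, eBayes, 2 residual and 2.64 prior degrees of freedom) and Benjamini-Hochberg adjustment at 0.05. The fit was tested on simulated data. Genotypes came from the labels, and replicate numbers only name arrays. The number of arrays limits the precision. The members and lists were chosen with earlier results of these data known. Every member was named. Of each further list, up to 4 called genes with the largest differences were named. Also named were Vbp1, Grpel1, Actb, Tubb5, Tubb2a, Epcam, S100a9, Ptprc, Kdr, Tek and the 4 unfitted neutrophil genes. These further genes were picked after their values were seen. Alternatives were another filter, another normalization, another choice of probe set, the title type as a block, another prior, a minimum difference of 0.2 and leaving out each array. Promoter windows were searched as exact letters.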

Additional observations from a re-analysis of the deposited data

Results flagged for a closer look

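In 4 chaperone genes the difference between genotypes had opposite signs in the XX-type and the XY-type pair, and this difference between the pairs was not tested, since each pair holds 1 array per genotype. The difference in the XY-type pair minus that in the XX-type pair was -0.19 for Dnaja1, -0.21 for Dnajb1, 0.25 for Dnajb4 and 0.06 for Pfdn1 on the log2 scale. None of these 4 genes passed the test between genotypes (limma, adjusted p from 0.708 to 0.978).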

How the results depend on the processing

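Across the 12 alternatives none of the 15 chaperone genes called changed direction (Pfdn4 had no value when the lowest 50% of genes were left out), and the number of genes called higher stayed at 13 to 18 under another filter, normalization, probe set choice, prior or the title type as a block, where 12.0% to 23.0% of all genes passed in either direction. With that block 18 genes passed: the 15, and Tcp1, Hspa14 and Hspb1. When the test asked for a change beyond 0.2 (treat in limma), 2 passed, Hsph1 (adjusted p = 0.0364) and Cct3 (adjusted p = 0.0429), where 3.15% of all genes did. Leaving out single arrays moved the count of genes called higher between 0 and 26: 0 without either wild-type array, 26 without CFLARs Tg replicate 1 (XCFX) and 21 without CFLARs Tg replicate 2 (XCFY), where 47.0% and 32.4% of all genes passed. The count of genes called lower ranged from 0 to 1, the 1 being Pfdn5 without CFLARs Tg replicate 1. The median difference of all chaperone genes ranged from 0.24 (without CFLARs Tg replicate 2) to 0.43 (without CFLARs Tg replicate 1), that of TRiC from 0.33 to 0.57, that of the HSP70 and HSP90 groups together from 0.32 to 0.51 and that of the mitochondrial group from 0.32 to 0.48. With 1 wild-type array, which is assumed to vary like the CFLARs Tg arrays, the smallest adjusted p of a chaperone gene was that of Hsph1 (0.152 without wild-type replicate 1 and 0.135 without wild-type replicate 2). Probe sets carry background signal, so differences of dim genes such as Pfdn4 may be understated in size.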
